A study of Mus musculus with 8 samples.

Results

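Xpo7 and 7 other protein-coding genes that start between 70 and 77 Mb on mouse chromosome 14 are described here, 8 of the 14166 genes in the deposited gene table. They are Slc39a14, Xpo7, Dok2, Gfra2, Sucla2, Esd, Slc25a30 and Tsc22d1 in the order of their starts. They were chosen because their levels differed between Pantr2 knockout and wildtype samples in an earlier look at these data, so the difference between genotypes is described below. EdgeR calls of it are given beside the share called over all genes, and they are not independent evidence for the 8 genes. The choice did not directly use whether that difference has the same size in every cell type, and this was tested. For Gfra2 that test is not independent of the choice, as described below.

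The data are single-nucleus RNA counts from dorsal telencephalon, the part of the embryonic brain from which the cortex grows. There were 4 samples from wildtype and 4 from Pantr2-/- mice, all labelled C57BL/6J and collected at E15.5, during the formation of cortical neurons. Pantr2 encodes a long noncoding RNA. How the knockout allele was made, the cells it is lost from, whether a sample pools embryos and whether the wildtype embryos were littermates are not given in the sources used here, and Pantr2 counts were not analysed here. Nothing in the labels says that the samples came from separate embryos, so p-values measure the spread between samples, which may be technical. Each genotype held samples with and without UMIs of Xist, the RNA used here to tell females from males. The samples of a genotype thus do not all come from the same single embryo, but how many embryos there were is not known. Each sample held 7280 to 10921 nuclei, 67319 in all, and 20446698 to 34083796 unique molecular identifiers (UMIs), each standing for 1 captured transcript. Mitochondrial genes took 1.66% to 2.31% of UMIs in wildtype and 1.70% to 2.32% in knockout samples, and 8 to 30 cell barcodes were shared by any pair of samples.

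The authors' deposited tables place every nucleus in 1 of 7 clusters. From marker genes, cluster 1 was upper-layer excitatory neuron-like (Cux2, Cux1 and Pou3f1) and clusters 2 (Bcl11b, Fezf2, Ldb2 and Sox5) and 3 (Tle4, Foxp2, Tbr1, Hs3st4 and Zfpm2) were deep-layer excitatory neuron-like. Cluster 4 was apical progenitor-like from 9 markers, Pax6 and Hes5 among them, and cluster 5 was intermediate progenitor-like from Eomes, Neurog2, Btg2, Mfap4 and Gadd45g. In clusters 6, led by Tafa1, and 7, led by Zfp385b, fewer than 3 markers of any class had their highest level, and both stayed unnamed. Markers raised there but higher in another cluster were not counted. Not every listed marker went with these names. Of the upper-layer markers, Rorb was highest in cluster 2 and Mdga1 in cluster 5, and of the 10 deep-layer markers, Crym was highest in cluster 7. The names were rebuilt here and can differ from those of the study.

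The 8 genes belong to no common family or pathway and share a stretch of chromosome. Exportin-7, from Xpo7, is a nuclear transport receptor of the importin beta family. Slc39a14 carries zinc, manganese and iron into the cytosol, Dok2 is an adaptor that damps Ras signalling below tyrosine kinases, and Gfra2 is the receptor subunit that binds neurturin and signals through Ret in neurons. Sucla2 is a subunit of the ATP-forming succinyl-CoA ligase of the citric acid cycle, Esd is an esterase that takes part in the clearance of formaldehyde, Slc25a30 is a carrier of the mitochondrial inner membrane, and Tsc22d1 is a leucine zipper protein of the TSC22 family.

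In the deposited gene table Xpo7 (ENSMUSG00000022100) spans 70891686 to 71004068, and Slc39a14 (ENSMUSG00000022094), upstream of it in coordinate order, spans 70540918 to 70588874. Dok2 (ENSMUSG00000022102) spans 71003476 to 71015935 and Gfra2 (ENSMUSG00000022103) spans 71127560 to 71217278. Sucla2 (ENSMUSG00000022110) spans 73762759 to 73833582 and Esd (ENSMUSG00000021996) spans 74969737 to 74988205. Slc25a30 (ENSMUSG00000022003) spans 75997557 to 76024477 and Tsc22d1 (ENSMUSG00000022010) spans 76652401 to 76745205. The table names no genome build. The starts lie 237440 bases after those of GENCODE M21 on GRCm38 for 7 of the 8 genes and 237449 bases after for Slc39a14, so these are not GRCm38 positions. Xpo7, Slc39a14 and Slc25a30 are on the minus strand and the other 5 on the plus strand. Dok2 and Xpo7 overlap by 593 bases on opposite strands. Xpo7 also overlaps Npm2 on its own strand, and whether the counting used strand is not given in the sources used here, so UMIs from the shared bases cannot be told apart. Npm2 was at 1.30 ± 0.15 CPM in wildtype and 1.26 ± 0.12 in knockout samples (SD, n = 4 each).

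RefSeq promoter sequences were found for 4 of the 8 genes. Those of Sucla2 and Esd, which were lower in the knockout samples, and of Slc25a30, the 1 gene that was higher, are shown so that genes that moved in opposite directions can be set side by side. Each run is the 250 bases before a RefSeq start, 5′ to 3′ on the strand of the gene, in GRCm38.p6. After the shift in positions given above, the runs of Esd and Slc25a30 adjoin the gene spans of the deposited table. That of Sucla2 lies inside its span, so it belongs to a different start. Capitals mark a GC box (GGGCGG on either strand) or a CCAAT box (CCAAT on either strand).
Sucla2, chr14:73552536-73552785, plus strand: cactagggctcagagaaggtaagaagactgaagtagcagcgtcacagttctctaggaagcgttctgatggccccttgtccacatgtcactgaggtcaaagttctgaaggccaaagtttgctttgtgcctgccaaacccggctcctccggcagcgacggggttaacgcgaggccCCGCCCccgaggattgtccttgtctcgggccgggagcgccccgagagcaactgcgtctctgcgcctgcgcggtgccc
Esd, chr14:74732047-74732296, plus strand: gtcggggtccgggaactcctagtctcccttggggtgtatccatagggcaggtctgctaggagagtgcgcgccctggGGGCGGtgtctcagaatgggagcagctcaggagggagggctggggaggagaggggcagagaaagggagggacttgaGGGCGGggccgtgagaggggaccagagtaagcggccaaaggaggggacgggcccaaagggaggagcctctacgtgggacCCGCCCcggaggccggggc
Slc25a30, chr14:75787038-75787287, minus strand: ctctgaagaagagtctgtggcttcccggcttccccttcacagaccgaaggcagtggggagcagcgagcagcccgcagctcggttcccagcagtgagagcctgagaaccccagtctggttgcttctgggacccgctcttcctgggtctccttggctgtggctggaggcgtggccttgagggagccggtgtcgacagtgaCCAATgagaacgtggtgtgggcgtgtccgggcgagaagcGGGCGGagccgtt
All 3 held at least 1 GC box, Sucla2 and Slc25a30 1 each and Esd 3, beside 32.7% of all 32851 RefSeq mouse promoters searched over the same length. The CCAAT box was in the Slc25a30 sequence and in neither of the other 2, and 33.8% of all promoters held it. None of the 3 held TATAAA or the E-box CACGTG, which were in 12.4% and 6.02% of all promoters. GC content was 61.2% for Sucla2, 68.4% for Esd and 64.4% for Slc25a30 (median of all promoters 52.4%), and they held 18, 13 and 16 CpG dinucleotides (median 6). The Tsc22d1 entry has 5 starts and is not shown. Tsc22d1 was lower in the knockout samples too, and its starts 4 and 5 held a CCAAT box. Its start 2 held TATAAA and the E-box. The CCAAT box was thus not confined to the gene that was higher.

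Over all nuclei, 7 of the 8 genes were lower in every knockout sample than in any wildtype sample, and Slc25a30 was higher in every knockout sample. Levels are given as CPM, the UMIs of a gene per 1000000 UMIs of the library after TMM scaling. The largest relative difference was that of Dok2 and the smallest that of Tsc22d1. In such sums over nuclei, fewer cells of a type and less RNA per cell cannot be told apart.

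Xpo7 stood at 406, 394, 380 and 392 CPM in wildtype replicates 1 to 4 and at 173, 177, 172 and 165 CPM in knockout replicates 1 to 4. The means were 393 ± 10.6 and 172 ± 4.95 CPM (SD, n = 4 each), a level 56.3% below wildtype and a log2 fold change of -1.20 ± 0.05 (SE, edgeR). No knockout sample came near the lowest wildtype sample, and the spread within each genotype was small beside the gap.

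Slc39a14, the metal importer on the lower-coordinate side of Xpo7, stood at 35.0, 34.5, 32.9 and 35.5 CPM in wildtype and at 15.1, 15.2, 16.6 and 15.3 CPM in knockout replicates. Its mean went from 34.5 ± 1.10 to 15.6 ± 0.701 CPM (SD, n = 4 each), a log2 fold change of -1.15 ± 0.06. The relative difference was thus close to that of Xpo7, with no overlap between the genotypes.

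Dok2, the adaptor whose 5′ end overlaps that of Xpo7, stood at 7.14, 4.66, 5.99 and 5.13 CPM in wildtype and at 2.08, 1.97, 1.62 and 1.60 CPM in knockout replicates. The log2 fold change was -1.64 ± 0.17, from 5.73 ± 1.09 to 1.82 ± 0.244 CPM (SD, n = 4 each). These levels rest on 575 UMIs in wildtype and 181 in knockout samples together. Dok2 is best known from blood cells: the summed level of 3 of 5 listed markers of microglia and blood cells (none of the 3 at 0) was 3.25 to 4.58 CPM in wildtype and 2.18 to 3.05 CPM in knockout samples, and its part in the Dok2 difference was not tested.

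Gfra2, the neurturin receptor, stood at 7.80, 8.38, 10.3 and 8.06 CPM in wildtype and at 4.31, 4.44, 5.93 and 5.81 CPM in knockout replicates. The log2 fold change was -0.76 ± 0.14, from 8.63 ± 1.13 to 5.12 ± 0.866 CPM (SD, n = 4 each), on 868 and 497 UMIs. Every knockout sample was below every wildtype sample. The difference was the most uneven over clusters of the 8 genes, as described below, and the log2 fold change was -0.45 when the nuclei of cluster 7 were left out, where it was no longer called. It was not called without knockout replicate 2 either, at -0.69.

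Sucla2, of the citric acid cycle, stood at 59.7, 64.4, 56.8 and 63.5 CPM in wildtype and at 39.1, 37.9, 40.6 and 36.9 CPM in knockout replicates. Its log2 fold change was -0.66 ± 0.06, from 61.1 ± 3.50 to 38.7 ± 1.58 CPM (SD, n = 4 each). The highest knockout sample lay well below the lowest wildtype sample.

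Esd, the esterase, stood at 72.3, 89.8, 90.9 and 71.8 CPM in wildtype and at 41.6, 39.9, 41.0 and 49.3 CPM in knockout replicates. Its log2 fold change was -0.92 ± 0.10, from 81.2 ± 10.5 to 43.0 ± 4.29 CPM (SD, n = 4 each). The wildtype samples fell into a lower pair, replicates 1 and 4, and a higher pair, replicates 2 and 3. Replicates 1 and 4 were below replicates 2 and 3 in all 7 clusters too, which come from the same libraries. The split was not particular to Esd. Adh5 stood at 38.9, 72.9, 78.8 and 46.1 CPM and Itm2b at 204, 370, 354 and 210 CPM in wildtype replicates 1 to 4, while Xpo7 did not show it. Esd has 9 near-identical copies in GENCODE M21 (at least 95% identity over at least 100 bases), none of them in the deposited gene table, so reads of these copies may have been counted or dropped with those of Esd. Xpo7 shares shorter stretches, up to 164 bases at 95.7% identity, with 4 genes, of which Topbp1 and Dnajc14 are in the deposited table, and reads from these stretches could be shared.

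Tsc22d1, the leucine zipper protein, stood at 655, 675, 664 and 682 CPM in wildtype and at 547, 554, 576 and 566 CPM in knockout replicates. Its log2 fold change was -0.26 ± 0.04, from 669 ± 11.9 to 561 ± 12.9 CPM (SD, n = 4 each), or 16.3% below wildtype. The difference was small, but the genotypes did not overlap.

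Slc25a30, the mitochondrial carrier, was the exception in direction. It stood at 22.3, 21.0, 21.7 and 22.5 CPM in wildtype and at 33.9, 32.3, 34.8 and 29.3 CPM in knockout replicates. Its log2 fold change was 0.57 ± 0.06, from 21.9 ± 0.652 to 32.6 ± 2.39 CPM (SD, n = 4 each). Its start lies between those of Esd and Tsc22d1, both of which were lower.

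**Figure D1:**
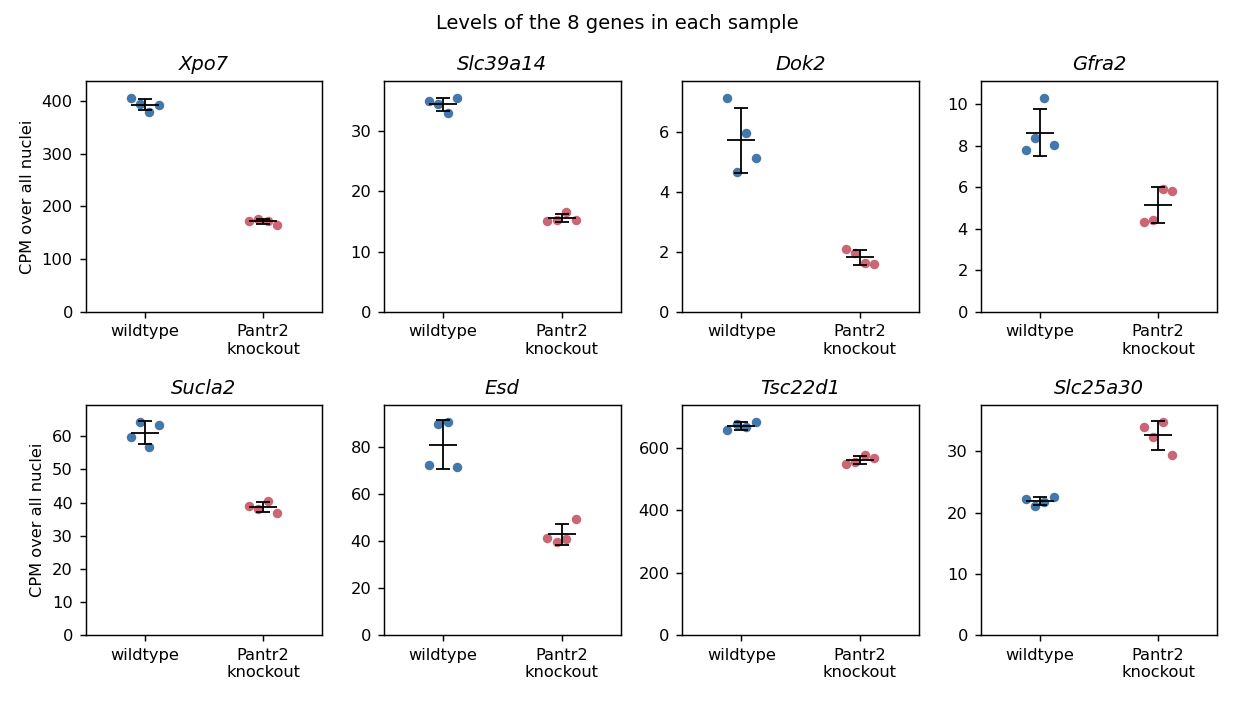
Level of each of the 8 genes over all nuclei, in CPM on linear axes from 0, for 4 wildtype and 4 Pantr2 knockout samples; points are samples in replicate order and the bars give the mean and SD. The genotypes do not overlap for any of the 8 genes, and only Slc25a30 is higher in the knockout samples.

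The plot of levels by sample shows that the spread within a genotype was widest, relative to the mean, for Dok2, Gfra2 and Esd. All 8 genes had an adjusted p under 0.05 in edgeR's quasi-likelihood test (called in what follows), 7 lower and 1 higher, where 5.26% of the 13927 genes tested were called, 3.58% lower and 1.67% higher. The samples of the genotypes did not overlap for 8 of 8, against 11.7% of all genes tested. The median log2 fold change was -0.84 over the 8 genes and 0.00 over all genes tested. The 8 genes were chosen from this contrast, so nothing is read from these counts.

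The summed level of 5 upper-layer markers (Cux2, Cux1, Pou3f1, Rorb and Mdga1) moved with genotype, from 1044 to 1302 CPM in wildtype to 912 to 1028 CPM in knockout samples, with no overlap and none at 0. The 10 deep-layer markers summed to 6510 to 7885 CPM in wildtype and 7669 to 8631 CPM in knockout samples, and 6 interneuron markers to 50.6 to 71.4 and 23.4 to 51.7 CPM, both with overlapping ranges. Cluster 6 held 3524 wildtype and 1955 knockout nuclei. With the 7 clusters weighted equally, the Xpo7 log2 fold change was -1.24.

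Within clusters, the direction was the same as over all nuclei for all 8 genes in every cluster tested, except Gfra2 in cluster 1. Of 56 pairs of a gene and a cluster, 54 passed the filter on low counts: Dok2 in cluster 7 (38 UMIs in wildtype and 8 in knockout samples) and Gfra2 in cluster 4 (36 and 27 UMIs) did not. Of the 54, 39 were called lower and 4 called higher, where 2.1% and 1.59% of all tests in the 7 cluster fits, 3.69% together, were called so. In clusters 1 to 7 in turn, 7, 5, 7, 7, 6, 5 and 6 of the 8 genes were called, where 4.84%, 9.11%, 3.36%, 4.29%, 1.77%, 0.779% and 1.03% of all genes tested were. The samples did not overlap in 48 of the 54 tested pairs, against 8.85% of all tests. These counts too come from the contrast that chose the genes.

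Xpo7 was called lower in all 7 clusters, with log2 fold changes of -1.24, -1.37, -1.22, -1.07, -1.18, -1.23 and -1.38 in clusters 1 to 7. In the apical progenitor-like cluster 4 it stood at 464, 470, 505 and 451 CPM in wildtype and at 224, 229, 231 and 212 CPM in knockout replicates. In the deep-layer-like cluster 2 it stood at 383, 359, 343 and 362 CPM in wildtype and at 140, 147, 133 and 139 CPM in knockout replicates. The knockout level was therefore 52.6% below wildtype in cluster 4 and 61.3% below in cluster 2, and both clusters showed a wide gap between genotypes.

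Slc39a14 was also called lower in all 7 clusters, from -0.77 ± 0.15 in the intermediate progenitor-like cluster 5 to -1.45 ± 0.12 in cluster 7. In cluster 5 it stood at 29.4, 25.9, 24.2 and 26.7 CPM in wildtype and at 19.97, 15.1, 15.2 and 11.9 CPM in knockout replicates. In cluster 7 it stood at 46.4, 46.7, 41.8 and 43.6 CPM in wildtype and at 16.8, 15.6, 15.4 and 17.5 CPM in knockout replicates. The genotypes were separate in both clusters, more widely in cluster 7.

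Dok2 was called lower in the 6 clusters where it was tested, with log2 fold changes from -1.33 ± 0.19 in cluster 4 to -2.32 ± 0.35 in cluster 6. In cluster 4, where its wildtype mean was highest, it stood at 9.51, 7.97, 8.75 and 6.87 CPM in wildtype and at 3.46, 3.49, 2.89 and 3.04 CPM in knockout replicates. In cluster 7, where it was not tested, the wildtype samples ranged from 3.00 to 8.07 CPM and the knockout samples from 0 to 1.73 CPM. Dok2 was thus lower in the knockout samples of every cluster, progenitors and neurons alike.

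Esd was called lower in all 7 clusters, with log2 fold changes from -0.87 ± 0.15 in cluster 6 to -1.02 ± 0.10 in cluster 1. In cluster 1 it stood at 77.04, 99.8, 91.2 and 74.9 CPM in wildtype and at 46.1, 40.1, 41.2 and 44.1 CPM in knockout replicates. Sucla2 was called lower in 6 clusters, from -0.63 ± 0.09 in cluster 1 to -0.74 ± 0.09 in cluster 2, and was at -0.53 ± 0.13 in cluster 6, where it was not called. In cluster 4 Sucla2 stood at 77.8, 79.7, 69.6 and 79.1 CPM in wildtype and at 44.7, 46.4, 51.6 and 46.9 CPM in knockout replicates. Both enzymes were lower in knockout samples in neuronal and in progenitor clusters.

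Tsc22d1 was called lower in 5 clusters, with the largest difference, -0.38 ± 0.06, in cluster 4. There it stood at 779, 776, 729 and 843 CPM in wildtype and at 593, 592, 595 and 623 CPM in knockout replicates. It was at -0.18 ± 0.06 in cluster 2 and -0.23 ± 0.07 in cluster 6, where it was not called. Slc25a30 was called higher in clusters 1, 3, 4 and 6 and was not called in clusters 2, 5 and 7, where its log2 fold changes were 0.44, 0.36 and 0.51. Its largest difference was 0.85 ± 0.11 in cluster 3, where it stood at 15.7, 12.3, 15.0 and 14.8 CPM in wildtype and at 25.8, 25.7, 28.5 and 24.4 CPM in knockout replicates. The estimates of Tsc22d1 were below 0 and those of Slc25a30 above 0 in all 7 clusters.

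**Figure D2:**
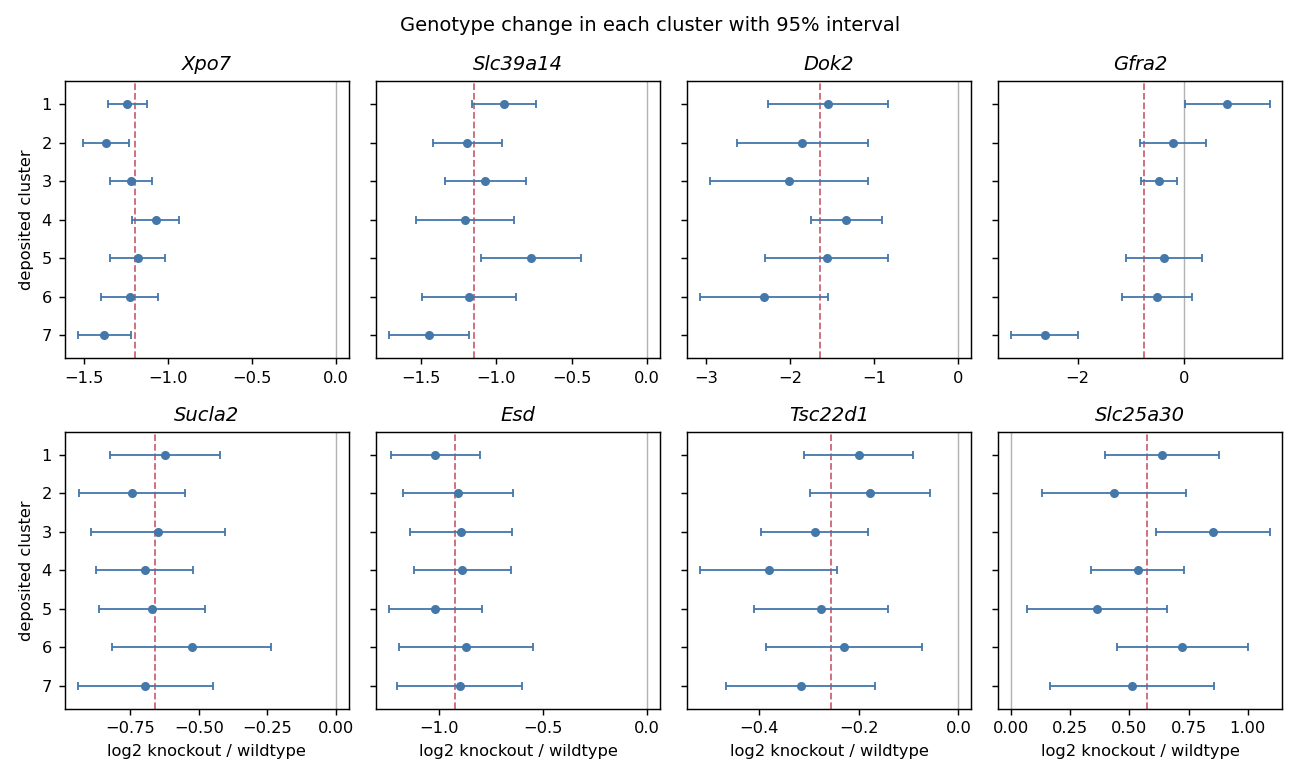
Log2 knockout over wildtype of each of the 8 genes in each deposited cluster (points, with 95% intervals from edgeR), beside the value over all nuclei (dashed line) and 0 (solid line); the horizontal scale differs between panels. The points of 7 genes lie on 1 side of 0 in every cluster tested, while Gfra2 runs from -2.62 in cluster 7 to 0.82 in cluster 1.

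Gfra2 had a different pattern from the other 7 genes in the plot of changes by cluster, and was called in 1 of its 6 tested clusters. In cluster 7 it stood at 29.6, 16.3, 29.96 and 25.5 CPM in wildtype and at 3.47, 2.11, 6.61 and 3.88 CPM in knockout replicates (217 and 34 UMIs). The log2 fold change there was -2.62 ± 0.29, and the highest knockout sample was far below the lowest wildtype sample. Cluster 7 held 2571 wildtype and 2629 knockout nuclei.

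In the deep-layer-like cluster 3, the other cluster with many Gfra2 UMIs (368 and 218), it stood at 14.5, 21.7, 18.4 and 17.0 CPM in wildtype and at 14.5, 11.7, 15.9 and 10.6 CPM in knockout replicates. The genotypes overlapped there and the log2 fold change was -0.47 ± 0.16, which was not called. In the upper-layer-like cluster 1 it stood at 4.02, 1.93, 1.34 and 2.59 CPM in wildtype and at 1.49, 3.54, 4.93 and 6.23 CPM in knockout replicates. That cluster held 43 and 80 Gfra2 UMIs, the genotypes overlapped, and the log2 fold change of 0.82 ± 0.37 was not called. In clusters 2, 5 and 6 the log2 fold changes were -0.21, -0.38 and -0.50, the genotypes overlapped, and none was called.

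**Figure D3:**
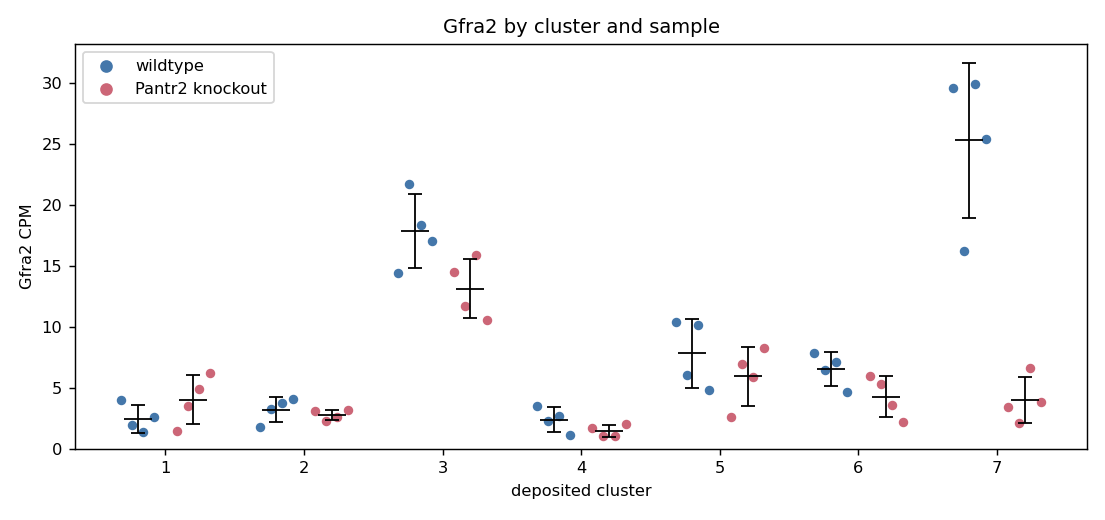
Gfra2 level in CPM (linear axis from 0) in each deposited cluster, for 4 wildtype (blue) and 4 Pantr2 knockout samples (red); points are samples in replicate order and the bars give the mean and SD. Clusters 7 and 3 hold the highest wildtype levels, and only in cluster 7 do the knockout samples, 2.11 to 6.61 CPM, lie below all wildtype samples.

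The plot of Gfra2 by cluster shows that wildtype levels were high in clusters 7 and 3 and low elsewhere. Whether the genotype difference varied over clusters was tested for all genes in 1 edgeR fit over the 56 sums of a sample and a cluster, with the sample as a block. The quasi-likelihood F test of all genotype-by-cluster terms called 2 of the 8 genes, Gfra2 and Xpo7, where 9.12% of 12933 genes were called. Gfra2 had a Benjamini-Hochberg adjusted p of 2.20e-05 and Xpo7 of 0.0180 by edgeR. For the other 6 genes the adjusted p by edgeR was 0.110 for Slc39a14, 0.244 for Tsc22d1, 0.388 for Slc25a30, 0.764 for Dok2, 0.927 for Sucla2 and 0.931 for Esd.

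Each cluster was then set against the mean of the other 6 in the same fit, and 3 of the 56 differences were called by edgeR. None of the 8 genes was called for clusters 2, 3, 5 and 6, where 5.02%, 0.936%, 0.255% and 0.232% of all genes were. The Gfra2 change in cluster 7 was lower than the mean of the others by -2.39 ± 0.34 on the log2 scale (95% interval -3.08 to -1.70, adjusted p = 4.33e-05, with 0.278% of all genes called). The Gfra2 change in cluster 1 was higher by 1.63 ± 0.38 (0.87 to 2.39, adjusted p = 0.0202 by edgeR, with 0.564% of all genes called). The Xpo7 change in cluster 4 was higher, and so smaller in size, by 0.20 ± 0.05 (0.10 to 0.31, adjusted p = 0.0148 by edgeR, with 4.86% of all genes called).

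The 3 differences were not equally firm. Gfra2 stayed called in the F test and in cluster 7 under every alternative run, with the difference in cluster 7 between -2.76 and -2.17. Its difference over all nuclei, from which it was chosen, was not called without cluster 7. The calls of Gfra2 in the F test and in cluster 7 are therefore not independent of the choice. The Gfra2 difference in cluster 1 was not called by limma-voom (adjusted p = 0.0563) or without any 1 of 6 samples, wildtype replicates 2, 3 and 4 and knockout replicates 2, 3 and 4, where the adjusted p by edgeR was 0.0613 to 0.170. The Xpo7 F test had an adjusted p of 0.0527 by edgeR when replicate numbers entered as a block, and of 0.172, 0.0943 and 0.221 when wildtype replicate 1, 2 or 4 was left out and 0.114 and 0.0921 when knockout replicate 1 or 3 was. The Xpo7 difference in cluster 4 was not called without any 1 of 6 samples, wildtype replicates 1, 2 and 4 and knockout replicates 1, 2 and 3, with values from 0.16 to 0.19. By limma-voom, Slc39a14 (adjusted p = 0.0325) and Tsc22d1 (adjusted p = 0.00974) were called as well.

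For the 6 genes not called in the F test, the intervals show how far 1 cluster may stand from the rest. Each interval is for 1 cluster taken alone, so they are not a joint bound over clusters. Over the 7 clusters, the 95% intervals of the difference lay within -0.22 and 0.21 on the log2 scale for Tsc22d1, -0.29 and 0.28 for Esd, -0.28 and 0.38 for Sucla2 and -0.54 and 0.57 for Slc25a30. They were wider for Slc39a14, -0.67 to 0.70, and for Dok2, -1.76 to 1.33, whose UMIs were fewest. For Dok2 a uniform difference was therefore not distinguishable at this depth from one that differs severalfold between clusters. Some single intervals left out 0. They were those of Slc39a14 in clusters 5 (0.15 to 0.70) and 7 (-0.67 to -0.13) and of Slc25a30 in cluster 3 (0.06 to 0.57). Those of Tsc22d1 in clusters 2 (0.01 to 0.21) and 4 (-0.22 to -0.03) did so too. None of these differences was called after adjustment, so an uneven difference is not excluded for these genes.

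The wildtype levels themselves varied over clusters in different ways for the 8 genes. Xpo7 was highest in apical progenitor-like cluster 4, at 472 ± 23.2 CPM (SD, n = 4), followed by clusters 5, 1, 6, 2 and 7, and lowest in deep-layer-like cluster 3, at 323 ± 13.5 CPM. Of the neighbours in that order, the means of clusters 1 and 6 differed by more than the sum of their SDs and the others did not. Tsc22d1 and Sucla2 shared the leading clusters 4 and 5, with means of 782 ± 46.8 and 708 ± 32.0 CPM for Tsc22d1 and 76.5 ± 4.67 and 69.6 ± 3.03 CPM for Sucla2. For both, cluster 5 was above the next cluster by more than the sum of the SDs, and no other neighbours passed that limit. Dok2 too was highest in cluster 4 (8.27 ± 1.13 CPM) and lowest in cluster 3 (4.21 ± 1.28 CPM), but no neighbours in its order were apart by more than the sum of the SDs.

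Slc39a14 ran the other way, from 44.6 ± 2.35 CPM in cluster 7 to 25.6 ± 3.75 CPM in cluster 4, with clusters 2 and 3, and 3 and 5, apart by more than the sum of the SDs. Gfra2 was highest in cluster 7 (25.3 ± 6.37 CPM), then cluster 3 (17.9 ± 3.04 CPM), and lowest in cluster 4 (2.39 ± 1.00 CPM). Its steps from cluster 3 to 5 and from 6 to 2 exceeded the sum of the SDs. Slc25a30 was highest in cluster 6 (26.5 ± 3.88 CPM) and lowest in cluster 3 (14.4 ± 1.498 CPM), and only cluster 3 stood apart from its neighbour in the order, cluster 2. Esd was the most even, from 91.2 ± 8.09 CPM in cluster 5 to 72.8 ± 8.18 CPM in cluster 6, with no neighbours apart by more than the sum of the SDs.

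The rest of the interval was then described. Beside the 8 genes, 39 genes of the table start between 70 and 77 Mb on chromosome 14, and 38 were tested over all nuclei. Of these, 9 were called, 6 lower and 3 higher, or 23.7%, and their median log2 fold change was 0.03. The interval was proposed with these calls known, so the counts are a description, and 5 of the 38 were called without wildtype replicate 4, knockout replicate 2 or knockout replicate 3. From 60 to 70 Mb 5 of 65 genes were called (7.69%), from 77 to 87 Mb 4 of 18 (22.2%), and on the rest of chromosome 14 25 of 358 (6.98%). Called genes were not spread evenly over that rest. They lay close together from Tpm3-rs7 (log2 fold change 6.69, starting 42.7 Mb after Xpo7) to Stk24 (0.75, 50.6 Mb after). They went both ways there, among genes that were not called. The interval is thus not the only stretch of chromosome 14 with called genes close together. Within 0.6 Mb of the Xpo7 start, 7 of 18 tested genes were called, Xpo7 and 3 others of the 8 among them. Genes that were not called thus lay among those that were. Not called does not mean unchanged. Sorbs3 was not called at -1.04 ± 0.32, on a mean of 25.6 UMIs per sample, although its genotypes did not overlap.

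The 5 largest differences among the other called genes of the interval went both ways. Gm49200, a predicted gene model, was at 0.685 ± 0.260 CPM in wildtype and 4.33 ± 0.241 CPM in knockout samples, with 4 of 4 knockout samples above all wildtype samples and a log2 fold change of 2.65 ± 0.22. Siah3, between Gm49200 and Slc25a30 in order of start, was also higher, from 45.9 ± 4.39 to 64.2 ± 7.25 CPM (0.49 ± 0.09). Dmtn, an actin-binding protein gene that starts close to Xpo7, was lower, from 30.03 ± 1.93 to 16.7 ± 2.50 CPM (-0.85 ± 0.10). Htr2a, a serotonin receptor gene close to Esd, went from 7.59 ± 0.57 to 4.09 ± 0.996 CPM (-0.89 ± 0.17), and Ccar2 from 37.5 ± 1.48 to 26.4 ± 1.91 CPM (-0.50 ± 0.06), all SD with n = 4 and log2 ± SE. Of these 5, the F test over clusters by edgeR called Siah3 (adjusted p = 5.90e-06) and Dmtn (adjusted p = 0.00996), whose log2 fold changes ran from -0.01 to 1.15 and from -0.88 to 0.16.

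**Figure D4:**
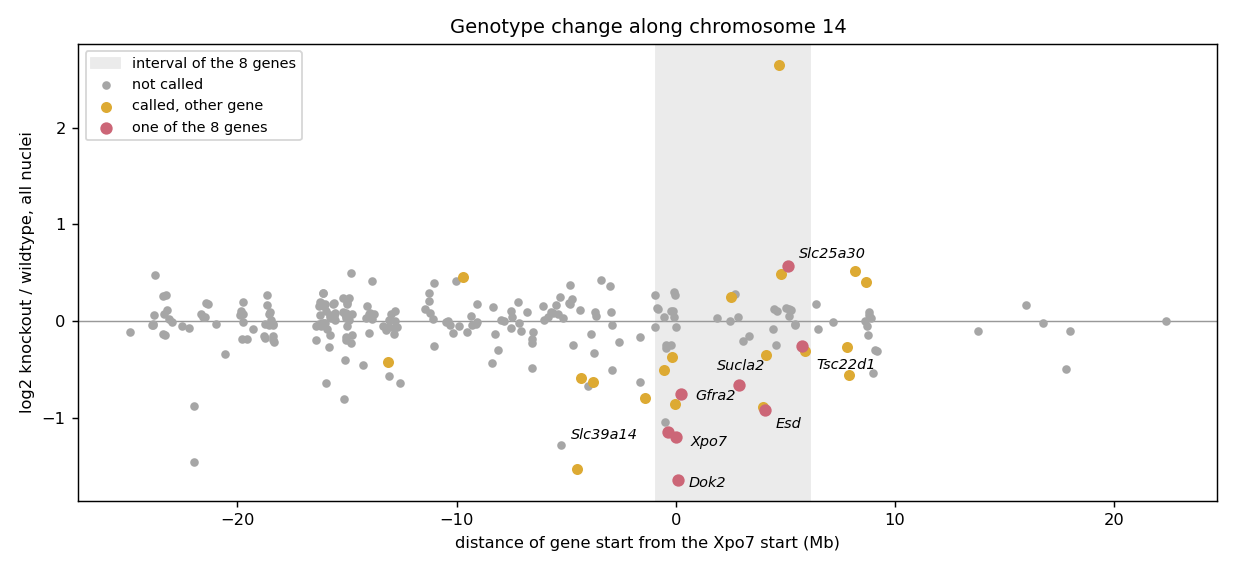
Log2 knockout over wildtype over all nuclei for genes tested within 25 Mb of the Xpo7 start on chromosome 14, against the distance between gene starts; grey points were not called, yellow and red points were called, and the shaded band is the interval from 70 to 77 Mb. The 8 genes lie among others that were not called, and the highest point in the band is Gm49200 at 2.65.

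At the edges of the interval in the plot along chromosome 14, the nearest tested genes outside it were not called. Chmp7, starting at 69.95 Mb, was at -0.06 ± 0.06 and Ccdc122, starting at 77.27 Mb, at 0.17 ± 0.26. Ccdc122 stood at only 0.644 CPM in wildtype and 0.740 CPM in knockout samples, too low to show whether it differed. The outermost of the 8 genes were Slc39a14 at -1.15 and Tsc22d1 at -0.26. Of the tested genes that start inside the interval before Slc39a14, Rhobtb2, Pebp4, Bin3, Sorbs3, Gm49417 and Ppp3cc were not called and Ccar2 was. The nearest called genes outside were Slc25a37 (69.48 Mb, -0.79 ± 0.17) and Akap11 (78.73 Mb, -0.27 ± 0.05). Beyond Akap11, Dgkh (-0.56), Vwa8 (0.52) and Naa16 (0.41) were called too.

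Relatives and partners of the 8 genes elsewhere in the genome were examined as a list of 61 genes: other exportins and nuclear transport factors, zinc carriers, Dok adaptors, receptors and ligands of the GDNF family, enzymes of the citric acid cycle and of formaldehyde clearance, TSC22 proteins and mitochondrial carriers. Of these, 48 were in the table and tested over all nuclei, and 1 was called, or 2.08% beside 5.26% of all genes. Their log2 fold changes ran from -0.58 to 0.33 with a median of 0.01, and 7 had an unadjusted p under 0.05 in edgeR's test.

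The called gene was Dok6, an adaptor related to Dok2, which was at 430, 429, 482 and 470 CPM in wildtype and at 307, 298, 318 and 395 CPM in knockout replicates. Its log2 fold change was -0.46 ± 0.09, with an adjusted p of 0.0177 by edgeR's quasi-likelihood test. It fell in the knockout samples with no overlap between genotypes. The count of the list was 5 with the replicate number as a block (Xpo1, Dok5, Tsc22d4, Dok6 and Ncam1) and 0 without wildtype replicate 4, knockout replicate 2 or knockout replicate 3. Ranbp17, the closest relative of Xpo7, was at 110 ± 4.58 CPM in wildtype and 117 ± 5.78 CPM in knockout samples (SD, n = 4 each). Its log2 fold change was 0.09, with a 95% interval of -0.03 to 0.21 (adjusted p = 0.406 by edgeR).

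Over clusters, the F test called 5 of 47 related genes tested, where it called 9.12% of all 12933 genes, so nothing is read from this count. The 5 were Dok5 (adjusted p = 3.03e-09), Tsc22d4 (2.87e-04), Dok6 (7.88e-04), Ranbp17 (0.00300) and Slc39a12 (0.00344), all by edgeR. All of the nuclear transport genes had log2 fold changes over all nuclei between 0.00 and 0.19, and the other citric acid cycle genes lay between 0.02 and 0.23. None of either group was called by edgeR, where 1 nuclear transport gene and 0 cycle genes had an unadjusted p under 0.05, nor by DESeq2. Xpo1 was called with the replicate number as a block and when knockout replicate 4 was left out. For the GDNF family, to which Gfra2 belongs, only listed receptors could be tested: Gfra1, Gfra4, Gfral, Ret and Ncam1. These ran from -0.44 to 0.12 with 0 of 5 called and 1 with an unadjusted p under 0.05 by edgeR. The ligands Gdnf, Nrtn, Artn and Pspn and the receptor Gfra3 were not among the genes measured, so nothing is known here of their levels.

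**Figure D5:**
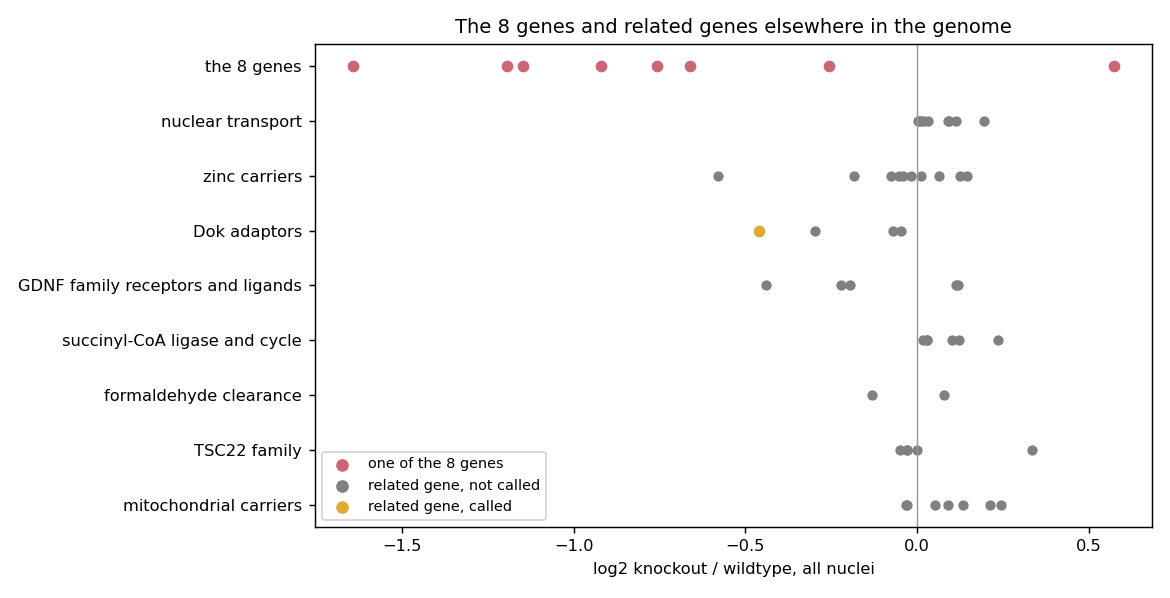
Log2 knockout over wildtype over all nuclei for the 8 genes (top line, red) and for 48 related genes elsewhere in the genome by group (grey, not called; yellow, called). The related genes lie between -0.58 and 0.33, and Dok6 is the 1 called.

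The plot of related genes shows 6 of the 8 genes below the lowest related gene. Last, the genes whose pattern was most like that of Xpo7 were sought among 8897 genes with a mean of at least 10 CPM. Over the wildtype means of the 7 clusters the closest were Rab1b (Pearson r = 0.995), Spopl (0.990) and Vps16 (0.989), of log2(CPM + 1). These 7 points share the same 4 libraries. Over the 8 samples the largest correlations were those of Tpm3-rs7 (-0.999), also on chromosome 14, Gm17167 (0.996) and Gm28438 (-0.993), and those of the other genes of the block were 0.996 for Slc39a14, 0.985 for Sucla2, 0.9745 for Tsc22d1, 0.939 for Esd and -0.961 for Slc25a30. The 8 samples form 2 genotypes, so any gene that differs between genotypes gives a large value here, and these are descriptions only.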

How the data were processed

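UMI counts per gene and nucleus, whole numbers that were not normalised, are those the authors deposited for each sample, and the deposited tables of nuclei give cluster numbers, library dates and doublet scores. Per the submitters' processing notes, kallisto, bustools and the build mm10 were used. The authors' deposited hybrid doublet scores are all at or under 0.5, all 8 samples carry 1 library date, and no nucleus was removed here. The 8 genes and every list were chosen with earlier results of these data known.

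Sums of UMIs were formed for each sample, over all its nuclei and per cluster (at least 50 nuclei in each sample, met by all 7). Knockout was compared with wildtype by edgeR 4.0.16 in R 4.3.3 (filterByExpr, TMM, glmQLFit, glmQLFTest, genotype as the only term), with Benjamini-Hochberg adjustment over all genes tested and a threshold of 0.05. Differences between clusters came from 1 edgeR fit with sample, cluster and genotype-by-cluster terms. SE values were taken from the F statistic. The fits were tested on simulated counts. Alternatives were limma 3.58.1 voom, DESeq2 1.42.0, its size factors, no filter, a replicate block, a sex term and each replicate left out. Copies were searched with blastn 2.17.0.

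Clusters were named where at least 3 markers of a class were highest in that cluster, at 10 CPM or more and at 1.5 times the median of the other clusters. A marker, with the sum of its list, is not reported here. Beside the 8 genes, those named are the 5 largest called changes in the interval with a mean of 10 UMIs or more and separate groups, related genes that were called, Ranbp17, and the 3 genes most like Xpo7 by each measure. A few others were named after their values were seen.

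The deviations of same-numbered samples of the 2 genotypes had correlations of 0.159 to 0.493, against -0.434 to 0.379 for the 12 other pairs. Every same-number value exceeded 0.1, the limit for taking them as pairs. The ranges overlapped: wildtype replicate 3 with knockout replicate 4, at 0.379, exceeded the same-number values of replicates 2, 3 and 4 (0.206, 0.247 and 0.159). Whether the samples are pairs is therefore not settled by these correlations. The replicate numbers come from the labels and entered as a block only in an alternative fit, not in the fits reported first. Wildtype replicate 4 and knockout replicates 1 and 4 gave 0 Xist UMIs and the other 5 samples 77 to 128. The sex term was set from these counts.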

Additional observations from a re-analysis of the deposited data

Results flagged for a closer look

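In 6 of 128 groups of 4 samples of the 8 genes, 1 sample stood apart from the other 3 by Dixon's criterion. Chance gives about 1 in 20 such groups, or 6.4 here. Over all nuclei, Slc39a14 was at 16.6 CPM in knockout replicate 3 and at 15.1 to 15.3 CPM in the other knockout samples. In cluster 1, Slc39a14 was at 42.3 CPM in wildtype replicate 4 and at 35.8 to 36.1 CPM in the others. Dok2 in cluster 6 was at 7.86 CPM in wildtype replicate 1 and at 6.46 to 6.57 CPM in the others. Sucla2 in cluster 7 was at 63.8 CPM in wildtype replicate 2 and at 50.5 to 52.4 CPM in the others. Tsc22d1 in cluster 4 was at 623 CPM in knockout replicate 4 and at 592 to 595 CPM in the others. Slc25a30 in cluster 7 was at 49.3 CPM in knockout replicate 3 and at 32.4 to 34.2 CPM in the others.

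The genotype difference varied between clusters for Gfra2 (adjusted p = 2.20e-05) and for Xpo7 (adjusted p = 0.0180) in edgeR's quasi-likelihood F test. The Gfra2 call is not independent of the choice of the genes, since its difference over all nuclei was not called without cluster 7. The Xpo7 call was lost with the replicate block (adjusted p = 0.0527) and when any 1 of 5 of the 8 samples was left out (0.0921 to 0.221), all by edgeR. The Gfra2 log2 fold change was -2.62 in cluster 7 and 0.82 in cluster 1, and that of Xpo7 ran from -1.38 in cluster 7 to -1.07 in cluster 4.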

How the results depend on the processing

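All 8 genes stayed called over all nuclei under every alternative run except 2, which left out cluster 7 (chosen after seeing the data) or knockout replicate 2. In both the count was 7, and Gfra2 was the gene lost, at -0.45 and -0.69 on the log2 scale (adjusted p = 0.0869 and 0.0549 by edgeR). The genes were chosen from this contrast in these samples, so calls that stayed are no sign of stability. No log2 fold change of the 8 genes over all nuclei turned its direction. Over clusters, 35 to 43 pairs were called under the alternatives, beside 43.

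The count of the 8 genes that differed between clusters, 2, was 1 with the replicate block and 4 by limma-voom, and 1 to 2 when a replicate was left out. The 3 differences of single clusters were 1 to 2 when a replicate was left out. Of the related genes, 1 was called, against 2 by DESeq2, with no filter, with a sex term and without cluster 7, 5 with the replicate block, and 0 to 3 when a replicate was left out. Of the other genes of the interval 9 were called, and 5 to 9 when a replicate was left out, with 5 without wildtype replicate 4, knockout replicate 2 or knockout replicate 3. The cause was not tested. With the replicate block 42 pairs of a gene and a cluster were called, and the block changed no other call of the 8 genes over all nuclei or between clusters. Depth limits Dok2 and Gfra2 most.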
